A study of Mus musculus with 48 samples.

Results

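The genes for aminoacyl-tRNA synthetases, the enzymes that join each amino acid to its transfer RNA, were followed across PFOS dose in mouse calf muscle. Members were the protein-coding genes of the deposited count table whose symbols follow the naming pattern of the family (an amino acid letter and "ars", with the endings used for subunits and for the mitochondrial forms, and the fused glutamyl-prolyl enzyme Eprs). The pattern found 38 of the 54532 genes in the table, 22046 of which are protein coding. Symbols ending in 2 were taken as mitochondrial, which gave 17 mitochondrial and 21 cytosolic genes. Tarsl2 ends in 2 but encodes a second cytosolic threonyl-tRNA synthetase, and it was counted as cytosolic. Gars and Kars each supply both compartments and were kept in the cytosolic class. The naming pattern uses no measured value, but the family was picked for study with earlier results of these data known.

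RNA-seq libraries were made from gastrocnemius, a mostly fast-twitch muscle, with 1 library from each of 48 mice. Perfluorooctane sulfonate (PFOS), a persistent fluorinated surfactant, was given by oral gavage for 21 days at 0, 1 or 10 mg/kg/day, so that the mice at dose 0 were gavaged too. The mice were females and males of the genotypes hCYP2B6-Tg, with a transgene for the human drug-metabolising enzyme CYP2B6, and Cyp2b-null, in which mouse Cyp2b genes are missing; neither is a wild type, and ages were not in the labels used here. The 12 groups held 3 to 5 mice, with 17, 16 and 15 mice at 0, 1 and 10 mg/kg/day, and genotype with sex gave 4 strata.

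Total counts ran from 11571142 to 19921061 per library (median 14420691), and the synthetase genes took 0.224% of all counts. The extraction text in the labels names liver, while the tissue field names gastrocnemius; the fast-fibre myosin gene Myh4 stood at a mean of 68030 CPM (counts scaled to a fixed library total) at dose 0, and albumin (Alb) at a median of 1 count per library. In 6 libraries transcripts of liver (Alb, at least 1000 counts) or lymph node (Glycam1, at least 40 counts) were present, and 4 of these libraries were at 10 mg/kg/day, 1 in each stratum. Library numbers given by the labels rose with dose in all 4 strata, so any effect of the order of handling cannot be told apart from dose. In bulk RNA, fewer cells of a type and less RNA per cell cannot be told apart.

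Translation runs in separate systems in a muscle fibre. The cytosolic synthetases charge tRNA for ribosomes that read nuclear messages, and several of them are held in a multi-synthetase complex by scaffold proteins. The mitochondrial synthetases are encoded in the nucleus, imported, and charge the mitochondrial tRNAs used to make the core subunits of the respiratory chain. ATF4, the transcription factor of the integrated stress response, is known to raise many cytosolic synthetase genes together with genes of amino acid synthesis and uptake.

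At dose 0 the cytosolic messages were the more abundant class. Scaled to gene length, the median level was 14.0 CPM per kilobase over the 21 cytosolic genes and 3.85 CPM per kilobase over the 17 mitochondrial genes. The asparaginyl enzyme gene Nars had the highest level per length of the family (47.6 CPM per kilobase) and its mitochondrial counterpart Nars2 the lowest (0.913 CPM per kilobase). The leucyl gene Lars2 (20.2 CPM per kilobase) and the isoleucyl gene Iars2 (9.13 CPM per kilobase) were the most abundant mitochondrial members. The spread between mice of a group at dose 0 was smaller for cytosolic genes, with a median coefficient of variation of 7.33% (4.58% for Cars to 10.1% for Vars), than for mitochondrial genes, with a median of 13.9% (6.72% for Hars2 to 37.5% for Lars2). The median level was 72.03 CPM for cytosolic and 15.05 CPM for mitochondrial genes. How much of the difference in spread comes from lower counts was not tested.

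The main question was how each class answered to dose. Comparing 10 with 0 mg/kg/day as an average of the 4 strata, 12 of the 21 cytosolic genes were higher, 3 were lower and 6 did not pass the test, against a background of 25% of all 15583 tested genes called higher and 22.5% called lower. Of the 17 mitochondrial genes 10 were lower, 7 did not pass and 0 were higher. The median log2 fold change was 0.11 over the cytosolic genes and -0.21 over the mitochondrial genes, with 0.04 over all genes tested. These calls came from edgeR's quasi-likelihood test on the counts, with Benjamini-Hochberg adjustment over all tested genes and a threshold of 0.05. The split depended on how libraries were scaled: on library totals without scaling factors, where the median of all genes moved to 0.26, 18 cytosolic genes were higher and 1 lower, and 3 mitochondrial genes (Ears2, Iars2, Nars2) were higher and 2 (Cars2, Sars2) lower. In that fit 7520 of all 15583 tested genes (48.3%) were called higher and 1642 lower. Every member's log2 fold change was higher on that scale. The gap between the class medians does not depend on that choice to the same degree and was 0.33 in both fits.

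**Figure D1:**
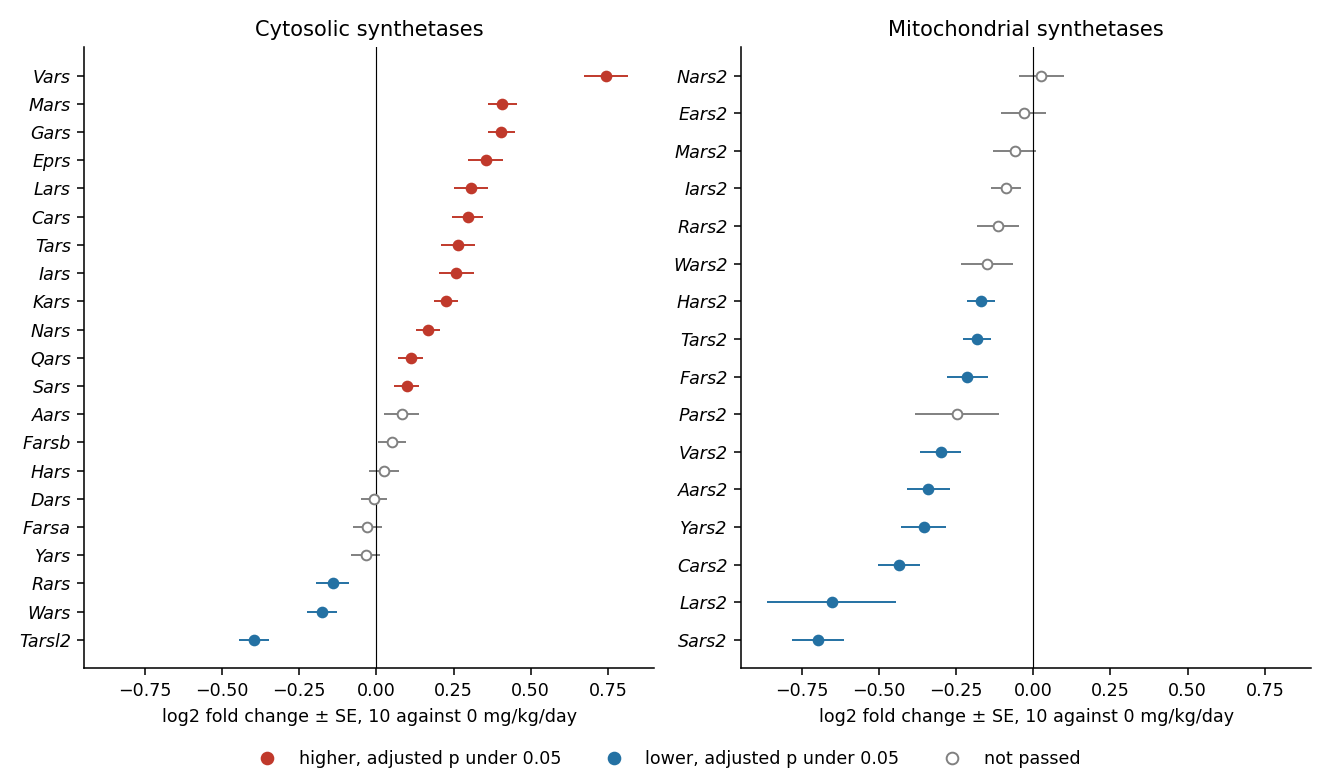
Each point is the log2 fold change of 1 synthetase gene at 10 against 0 mg/kg/day, as an average of the strata, with its standard error (edgeR, 48 mice); filled points passed the test, and 1 mitochondrial gene is not drawn. The cytosolic genes run from Tarsl2 at -0.40 to Vars at 0.74, and all mitochondrial genes drawn but Nars2 lie below 0.

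The same contrast was seen mouse by mouse. For each mouse, the level of a class was taken as the median over its genes of the log2 CPM minus the mean of the same stratum at dose 0. Mice at dose 0 are part of that mean, which tends to narrow their range, while mice at the other doses are not. The mitochondrial class level ran from -0.14 to 0.18 at dose 0 (median -0.04, n = 17) and from -0.33 to -0.08 at 10 mg/kg/day (median -0.24, n = 15), with a small overlap between these groups. The cytosolic class level ran from -0.14 to 0.08 at dose 0 (median 0.00) and from -0.13 to 0.34 at 10 mg/kg/day (median 0.15), with more overlap. The difference between the classes within a mouse, from which the scaling of the library drops out, ran from -0.20 to 0.12 at dose 0, from -0.28 to 0.19 at 1 mg/kg/day and from 0.07 to 0.57 at 10 mg/kg/day (median 0.36). Only the lower end of the 10 mg/kg/day range reached into the range at dose 0.

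**Figure D2:**
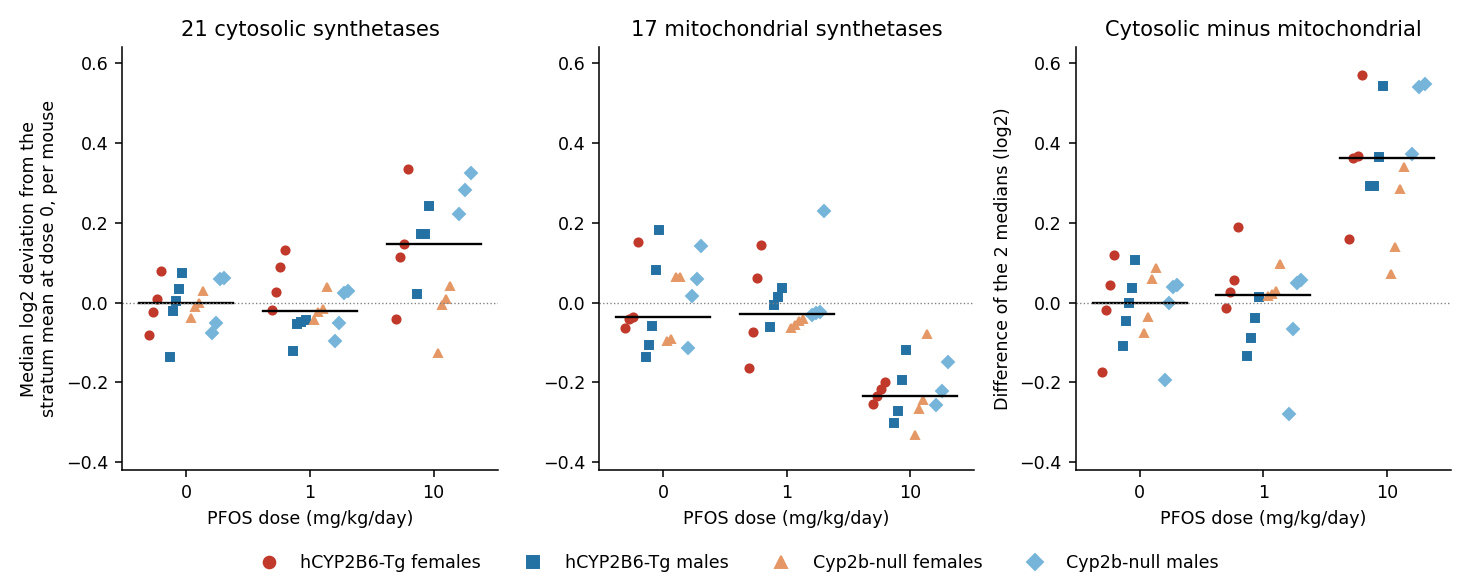
Each point is 1 mouse; the vertical axes give the median log2 deviation of the class from the stratum mean at dose 0, and the difference of the cytosolic and mitochondrial medians, against PFOS dose. Black lines are medians over the mice of a dose; the difference has a median of 0.36 at 10 mg/kg/day and 0.02 at 1 mg/kg/day.

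Among the cytosolic genes, those of the enzymes held in the multi-synthetase complex were counted first. Of these 8 genes, 6 rose at 10 mg/kg/day, 1 (Rars) fell and 1 (Dars) did not pass, with a median log2 fold change of 0.24. Over all tested genes 25% were called higher and 22.5% lower. Mars, the methionyl enzyme that also charges the initiator tRNA (chr10:127296221-127311786 in GRCm38, minus strand), ran from 67.4 to 90.4 CPM at dose 0 (median 76.4), from 69.3 to 94.4 at 1 mg/kg/day (median 78.3) and from 73.5 to 120.6 at 10 mg/kg/day (median 110.9). At 10 mg/kg/day 12 of 15 mice stood above every mouse at dose 0. Mars had a log2 fold change of 0.41 ± 0.05 (SE), with an adjusted p of 3.8e-09 by edgeR. Mars overlaps the stress gene Ddit3 on the opposite strand by 68 bases; Ddit3 had 7445 counts over all mice against 61335 for Mars, and a log2 fold change of -0.02 that did not pass.

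Eprs, which charges both glutamate and proline, was the cytosolic gene with the most counts. Its level was 216 to 289 CPM at dose 0 (median 255), 214 to 267 at 1 mg/kg/day (median 241) and 217 to 456 at 10 mg/kg/day (median 313), and 10 of 15 mice at the high dose exceeded every mouse at dose 0. Eprs had a log2 fold change of 0.35 ± 0.06 (adjusted p = 1.85e-06, edgeR). Kars, the lysyl enzyme, ran from 109.6 to 147.8 CPM at dose 0 and from 133.6 to 166.2 CPM at 10 mg/kg/day. For Kars 15 of 17 mice at dose 0 lay below every mouse at the high dose, and the log2 fold change was 0.23 ± 0.04 (adjusted p = 4.42e-06, edgeR). Lars, the leucyl enzyme that also senses leucine, ran from 44.1 to 53.6 CPM at dose 0 and from 43.1 to 94.9 CPM at 10 mg/kg/day, with 11 of 15 mice above every mouse at dose 0 (log2 fold change 0.31 ± 0.06, adjusted p = 1.2e-05, edgeR). The isoleucyl gene Iars (0.26) and the glutaminyl gene Qars (0.11) rose by less. Rars, the arginyl gene, fell by 0.14. Its call was lost without the 6 libraries with liver or lymph node transcripts (-0.10) and with adipocyte markers as a covariate (-0.01). On unscaled library totals its log2 fold change was 0.07. Without a filter on low counts neither Qars nor Rars passed.

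Of the 13 cytosolic genes outside the complex, 6 rose and 2 fell, with a median log2 fold change of 0.08. The shares over all tested genes were 25% higher and 22.5% lower. Vars, the valyl enzyme (chr17:35000987-35016322, plus strand), had the largest rise of the family. Its level ran from 37.3 to 62.0 CPM at dose 0 (median 47.0), from 35.4 to 59.0 at 1 mg/kg/day (median 51.6) and from 61.5 to 106.5 at 10 mg/kg/day (median 77.7). At the high dose 14 of 15 mice stood above all 17 mice at dose 0, so the groups barely overlapped, while the 1 mg/kg/day mice lay within or below the range at dose 0. The log2 fold change was 0.74 ± 0.07, or 1.67-fold, with an adjusted p of 5.82e-11 by edgeR.

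Gars, the glycyl enzyme that serves the cytosol and the mitochondrion (chr6:55038007-55079500, plus strand), ran from 65.8 to 87.7 CPM at dose 0 (median 71.9), from 69.9 to 85.8 at 1 mg/kg/day (median 74.4) and from 79.3 to 111.8 at 10 mg/kg/day (median 94.2). All but 1 of the mice at dose 0 lay below every mouse at the high dose. Gars rose by 0.41 ± 0.05 on the log2 scale (adjusted p = 1.45e-09, edgeR). Cars, the cysteinyl enzyme, ran from 40.2 to 47.8 CPM at dose 0 and from 37.9 to 65.0 CPM at 10 mg/kg/day, and 12 of 15 mice at the high dose exceeded every mouse at dose 0 (log2 fold change 0.30 ± 0.05, adjusted p = 8.34e-06, edgeR). The threonyl gene Tars (0.26), the asparaginyl gene Nars (0.17) and the seryl gene Sars (0.10) also rose. The call for Sars was the least stable of the family: it was lost in 21 of 57 other fits, in all of which its log2 fold change stayed positive.

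Tarsl2 moved against its class. This second threonyl-tRNA synthetase (chr7:65644898-65692091, plus strand) ran from 91.8 to 123.1 CPM at dose 0 (median 104.5), from 85.3 to 110.4 at 1 mg/kg/day (median 98.3) and from 62.5 to 97.6 at 10 mg/kg/day (median 80.1). At the high dose 13 of 15 mice lay below every mouse at dose 0. Tarsl2 had a log2 fold change of -0.40 ± 0.05 (adjusted p = 2.46e-08, edgeR; -0.18 on unscaled library totals), and Tars, which charges the same tRNA, one of 0.26 ± 0.05 (adjusted p = 8.79e-05, edgeR). Tarsl2 overlaps Tm2d3 on the same strand by 923 bases, and Tm2d3 had 4680 counts against 65603 for Tarsl2. The tryptophanyl gene Wars fell as well (-0.18 ± 0.05, adjusted p = 0.00342, edgeR), except on unscaled library totals, where its log2 fold change was 0.05. The 6 cytosolic genes that did not pass were the alanyl gene Aars (0.08), the phenylalanyl subunit genes Farsa (-0.03) and Farsb (0.05), the histidyl gene Hars (0.03), the aspartyl gene Dars (-0.01) and the tyrosyl gene Yars (-0.04).

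**Figure D3:**
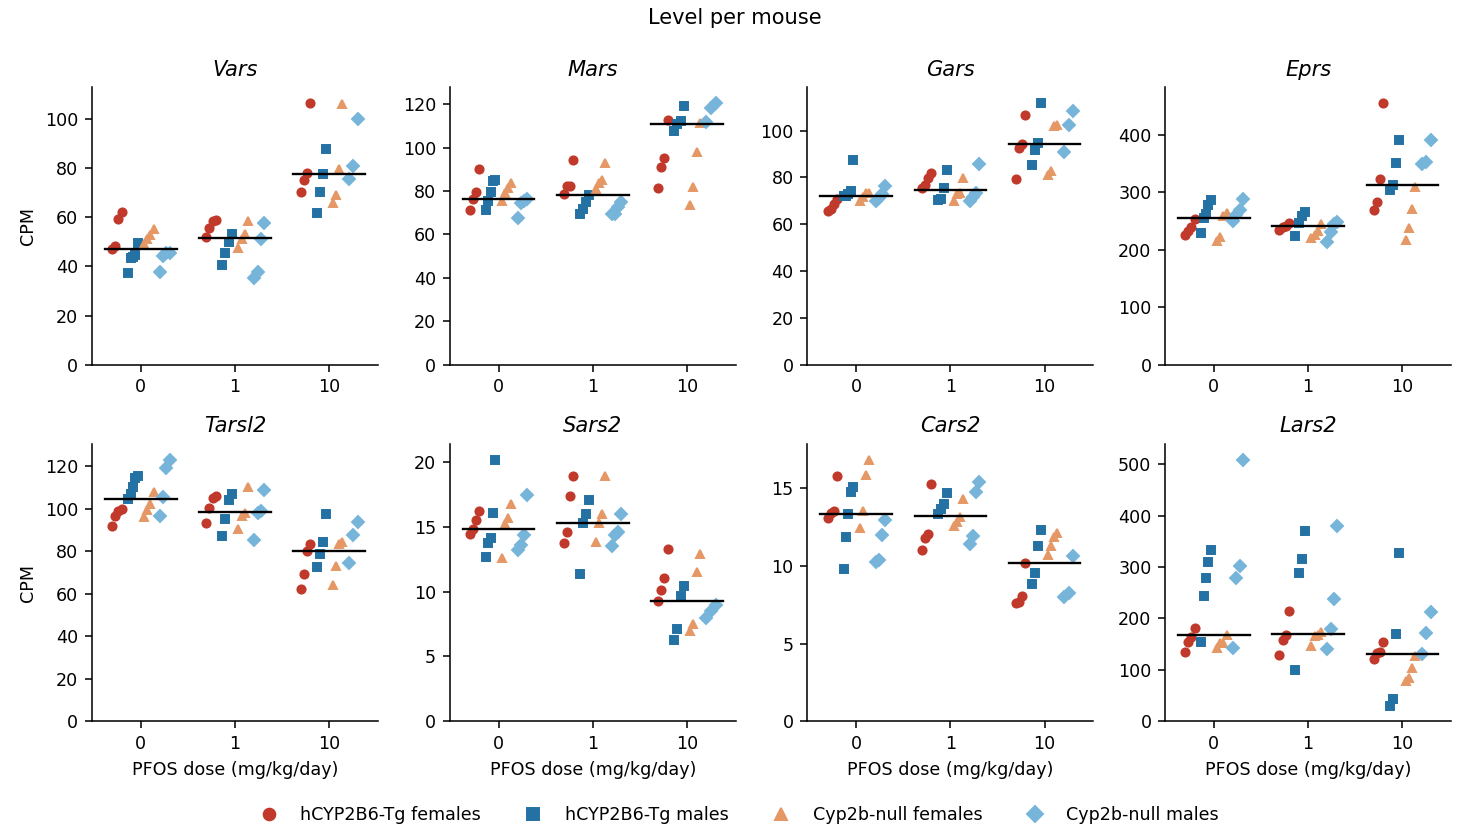
CPM of 8 synthetase genes in each of 48 mice against PFOS dose, with a black line at the median of the dose; symbols mark the 4 strata, and each vertical axis starts at 0. Vars at 10 mg/kg/day spans 61.5 to 106.5 CPM against 37.3 to 62.0 CPM at dose 0, and Lars2 spreads widely in males.

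The genes were also split by the catalytic fold, beside 25% of all tested genes called higher and 22.5% called lower. The cytosolic genes of class I enzymes gave 7 higher and 2 lower of 10 (median log2 fold change 0.28). Those of class II gave 5 higher and 1 lower of 11 (median 0.08). In the mitochondrial set the class I genes gave 4 lower of 9 (median -0.15) and the class II genes 6 lower of 8 (median -0.23).

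Sars2, the mitochondrial seryl enzyme (chr7:28741992-28753871, plus strand), had the largest fall of the family. It ran from 12.6 to 20.2 CPM at dose 0 (median 14.9), from 11.3 to 18.9 at 1 mg/kg/day (median 15.3) and from 6.23 to 13.3 at 10 mg/kg/day (median 9.28). At the high dose 13 of 15 mice lay below every mouse at dose 0. Its log2 fold change was -0.70 ± 0.09, a ratio of 0.617, with an adjusted p of 1.13e-08 by edgeR.

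Cars2, the mitochondrial cysteinyl enzyme (chr8:11513977-11550783, minus strand), ran from 9.78 to 16.8 CPM at dose 0 (median 13.3), from 11.0 to 15.4 at 1 mg/kg/day (median 13.2) and from 7.63 to 12.3 at 10 mg/kg/day (median 10.2). The ranges overlapped, with 7 of 15 high-dose mice below all mice at dose 0 (log2 fold change -0.44 ± 0.07, adjusted p = 9.83e-07, edgeR). On unscaled library totals Cars2 still passed, at -0.22 (adjusted p = 0.0033, edgeR). Cars2 shares 984 bases with Naxd on the opposite strand, which had 19230 counts against 8418 for Cars2. Aars2, the alanyl enzyme, ran from 19.5 to 29.3 CPM at dose 0 and from 15.2 to 24.4 CPM at 10 mg/kg/day, and 9 of 15 high-dose mice fell below all mice at dose 0 (log2 fold change -0.34 ± 0.07, adjusted p = 9.66e-05, edgeR). Cars2 and Aars2 fell to similar ratios of high-dose to control level, 0.740 and 0.790.

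Yars2, the tyrosyl enzyme, ran from 11.5 to 17.5 CPM at dose 0 and from 9.24 to 13.9 CPM at 10 mg/kg/day (log2 fold change -0.36 ± 0.07, adjusted p = 0.000109, edgeR). Vars2, the valyl enzyme, ran from 11.1 to 17.9 CPM at dose 0 and from 10.4 to 15.5 CPM at 10 mg/kg/day (log2 fold change -0.30 ± 0.07, adjusted p = 0.000202, edgeR). The calls of Aars2, Yars2 and Vars2 were all lost on unscaled library totals, where their log2 fold changes were -0.13, -0.14 and -0.08 (adjusted p = 0.0791, 0.0864 and 0.348, edgeR). Tars2, the threonyl enzyme, ran from 25.4 to 34.8 CPM at dose 0, from 28.7 to 35.2 CPM at 1 mg/kg/day and from 23.8 to 30.02 CPM at 10 mg/kg/day (log2 fold change -0.18 ± 0.05, adjusted p = 0.00117, edgeR). Hars2, the histidyl enzyme, ran from 19.2 to 24.7 CPM at dose 0, from 19.2 to 26.7 CPM at 1 mg/kg/day and from 16.6 to 22.5 CPM at 10 mg/kg/day (log2 fold change -0.17 ± 0.05, adjusted p = 0.00289, edgeR). The ranges of both overlapped between doses, with 6 of 15 high-dose mice below all mice at dose 0 for Tars2 and 9 of 15 for Hars2. The phenylalanyl gene Fars2 fell by 0.21. The calls of Fars2 and Tars2 were lost with adipocyte markers as a covariate, and that of Fars2 also without the 6 libraries with liver or lymph node transcripts. On unscaled library totals the log2 fold changes of Tars2, Hars2 and Fars2 were 0.03, 0.05 and 0.00, and none of these passed. Hars2 and its cytosolic counterpart Hars lie head to head and overlap by 198 bases on opposite strands, and their log2 fold changes were -0.17 and 0.03. The 7 mitochondrial genes that did not pass were Pars2 (-0.25), Wars2 (-0.15), Rars2 (-0.11), Iars2 (-0.09), Mars2 (-0.06), Ears2 (-0.03) and Nars2 (0.03).

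Lars2, the mitochondrial leucyl enzyme (chr9:123366927-123462666, plus strand), was the most variable member. It ran from 134.7 to 509 CPM at dose 0 (median 168.8), from 98.8 to 380.8 at 1 mg/kg/day (median 170.8) and from 29.8 to 327.3 at 10 mg/kg/day (median 130.6). At the high dose 10 of 15 mice lay below every mouse at dose 0, but hCYP2B6-Tg males alone covered the range from 29.8 to 327.3 CPM. The log2 fold change was -0.65 ± 0.21 (adjusted p = 0.00948, edgeR), and no stratum passed by itself in edgeR's test, whereas limma called Lars2 lower in hCYP2B6-Tg males. The call was lost on unscaled totals (-0.44), with adipocyte markers as a covariate (-0.33) and without the 6 libraries with liver or lymph node transcripts (-0.51). At dose 0 the females of both genotypes were tight (134.7 to 181.4 CPM in hCYP2B6-Tg, 142.6 to 168.8 CPM in Cyp2b-null), whereas the males ran from 154.4 to 332.4 and from 143.4 to 509 CPM.

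The low dose gave no call. As an average over strata, 1 against 0 mg/kg/day gave no passing gene: 0 of 38 synthetase genes passed edgeR's test, beside 0% of all tested genes called. The unadjusted p was under 0.05 for 0 members, beside 578 of all 15583 tested genes. DESeq2 and limma also called 0 members. The log2 fold changes ran from -0.17 (Pars2) to 0.08 (Tars2). Within strata 0 members passed, with a background of 0.0128% in hCYP2B6-Tg males and 0% in the other strata. The unadjusted p was under 0.05 for 2 members in Cyp2b-null males and for 1 in hCYP2B6-Tg females, beside 767 and 656 of all tested genes. DESeq2 and limma called 0 members in each stratum. At 10 against 1 mg/kg/day, 11 cytosolic genes were higher (background 24.7%) and 2 lower, Tarsl2 and Wars, while 10 mitochondrial genes were lower (background 22.2%) and 0 higher. Vars (0.68 ± 0.07, adjusted p = 6.92e-10, edgeR) and Sars2 (-0.73 ± 0.09, adjusted p = 6.84e-09, edgeR) again marked the ends of the range. These contrasts share the 10 mg/kg/day mice with those against dose 0.

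The dose effect was then taken within each stratum, at 10 against 0 mg/kg/day. In hCYP2B6-Tg females 7 cytosolic genes were higher (background 14.2%) and 1 lower, and 6 mitochondrial genes were lower (background 13.5%). In hCYP2B6-Tg males 7 cytosolic genes were higher (background 7.92%) and 1 lower, and 3 mitochondrial genes, among them Sars2 and Yars2, were lower (background 10.6%). In Cyp2b-null males 11 cytosolic genes were higher (background 7.45%) and 1 lower, and 1 mitochondrial gene, Sars2, was lower (background 8.36%). In Cyp2b-null females 2 cytosolic genes, Vars and Gars, were higher (background 5.83%) and 1 lower, and 2 mitochondrial genes, Iars2 and Sars2, were lower (background 6.87%). These counts depended on the scaling: on unscaled library totals 14, 16, 14 and 15 cytosolic genes were higher in the strata in that order, with 22.6%, 25.6%, 12.9% and 28.6% of all tested genes called higher, and 2, 1, 1 and 1 mitochondrial genes were lower. The shares of all tested genes called lower were then 7.55%, 4.45%, 5.73% and 2.82%. Some mitochondrial genes were called higher on those totals: Iars2 and Nars2 in hCYP2B6-Tg females, Wars2 in hCYP2B6-Tg males and Rars2 in Cyp2b-null females. In Cyp2b-null females 0 mitochondrial genes were lower with adipocyte markers as a covariate, 0 without the 6 libraries with liver or lymph node transcripts, and 0 to 3 when 1 mouse was left out. The share of all tested genes called lower in that stratum was 3.56% with the covariate and 2.8% without those libraries. The median log2 fold change over the mitochondrial genes was then -0.15 and -0.17.

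Across strata the same few genes recurred. By edgeR's test with TMM scaling, Vars and Gars rose in all 4 strata, and Tarsl2 and Sars2 fell in all 4. Over 57 other fits (other tools, scaling, filters and libraries left out) Vars kept its call in each stratum, and none of the 4 genes changed sign. Gars lost its call in Cyp2b-null females with the adipocyte covariate and without replicate 3 at 10 mg/kg/day, and in hCYP2B6-Tg males without replicate 3 at that dose. Tarsl2 lost it in all 4 strata on unscaled library totals, in Cyp2b-null females with the covariate, and in Cyp2b-null males without the 6 libraries or without replicate 3 at 10 mg/kg/day. Sars2 kept its call in the males of both genotypes. In hCYP2B6-Tg females Sars2 lost it in 8 fits: on unscaled totals, without a filter on low counts, with the covariate, by limma, and without replicate 1 or 2 at dose 0 or replicate 2 or 3 at 10 mg/kg/day. In Cyp2b-null females Sars2 lost it in 4 fits: with the covariate, without the 6 libraries, and without replicate 1 or 3 at 10 mg/kg/day. Vars changed by 0.61 ± 0.14 in hCYP2B6-Tg females, 0.77 ± 0.14 in hCYP2B6-Tg males, 0.62 ± 0.14 in Cyp2b-null females and 0.98 ± 0.15 in Cyp2b-null males. Tarsl2 changed by nearly the same amount everywhere, between -0.41 and -0.38. Mars and Eprs rose in 3 strata and did not pass edgeR's test in Cyp2b-null females (0.19 and 0.11), where limma called Mars higher and unscaled library totals gave both as higher. All 10 mitochondrial genes lower on average had a negative log2 fold change in each of the 4 strata with TMM scaling. Counts within a stratum moved with single mice: without replicate 2 of the hCYP2B6-Tg females at 10 mg/kg/day 4 cytosolic genes were higher there, without replicate 3 of the hCYP2B6-Tg males at that dose 3, without replicate 3 of the Cyp2b-null females 1, and without replicate 3 of the Cyp2b-null males 7.

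**Figure D4:**
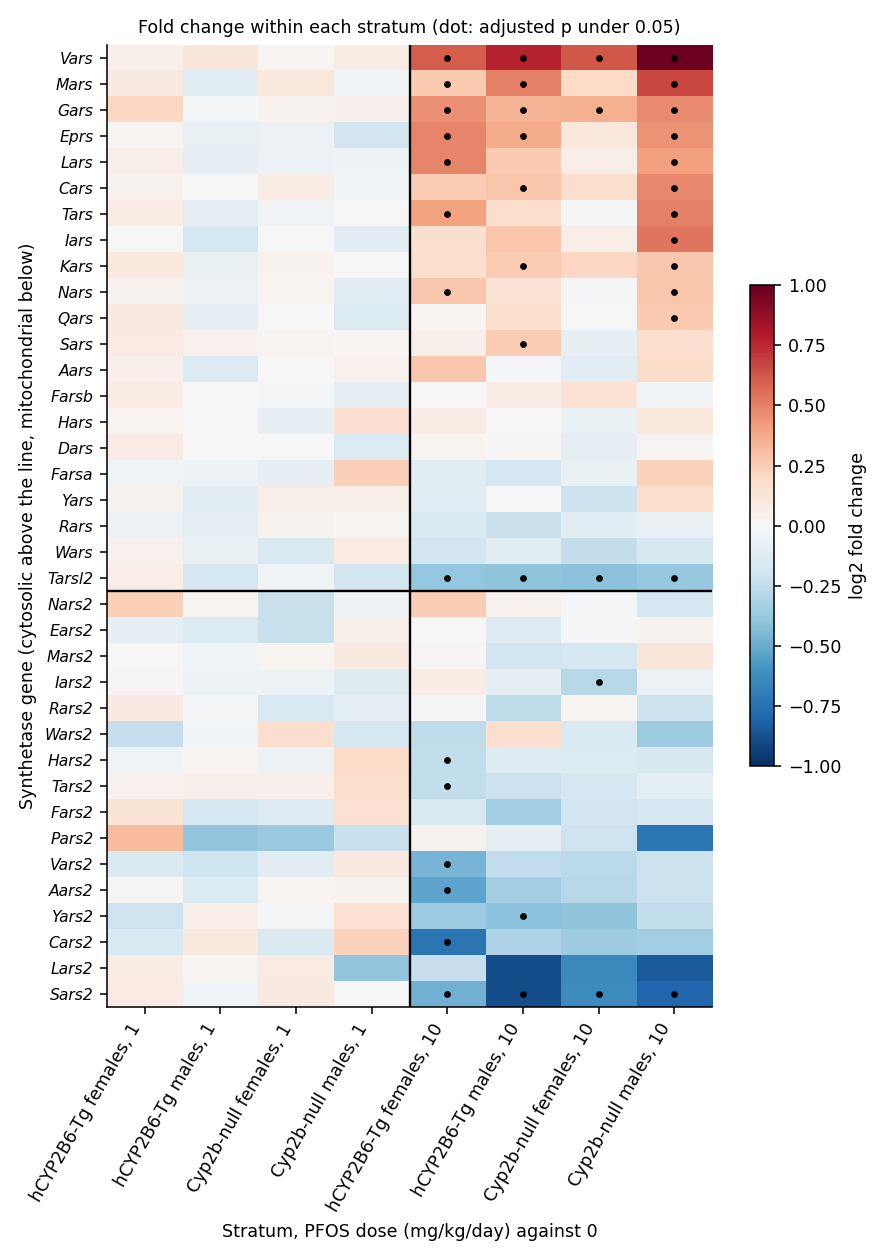
Log2 fold change of the synthetase genes (rows, 1 mitochondrial gene not drawn) against dose 0 in each stratum (columns, 1 mg/kg/day on the left, 10 mg/kg/day on the right), with a dot where the adjusted p was under 0.05. Vars, Gars, Tarsl2 and Sars2 carry a dot in all 4 strata at 10 mg/kg/day, and no cell at 1 mg/kg/day carries one.

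With TMM scaling the median log2 fold change over the 21 cytosolic genes was -0.01 in Cyp2b-null females, against 0.26 in Cyp2b-null males, 0.16 in hCYP2B6-Tg females and 0.16 in hCYP2B6-Tg males. On unscaled library totals these medians were 0.30, 0.40, 0.33 and 0.42, beside 0.33, 0.14, 0.21 and 0.28 over all tested genes, and the count of cytosolic genes higher was 15 in Cyp2b-null females against 14 in Cyp2b-null males. The cytosolic class level of the 4 high-dose Cyp2b-null females ran from -0.13 to 0.04, and that of the 3 high-dose Cyp2b-null males from 0.22 to 0.33, without overlap. The mitochondrial medians ran from -0.25 to -0.21 in the 4 strata, and from -0.07 to 0.07 on unscaled totals. The difference itself did not pass for any member. For Cyp2b-null females minus Cyp2b-null males, a contrast added after the data were seen, 0 of 38 members passed edgeR's test (background 0.0898%). Of these, 11 had an unadjusted p under 0.05, beside 1686 of all 15583 tested genes. DESeq2 and limma called 0 members. The lowest adjusted p was 0.135, for Mars (-0.48 ± 0.14). Over both genotypes, the dose effect in females minus that in males passed edgeR's test for 0 members (background 0.128%). The unadjusted p was under 0.05 for 5 members, beside 1490 of all 15583 tested genes. The lowest adjusted p was 0.111 (edgeR), again for Mars (-0.36 ± 0.10). DESeq2 called Mars and limma called Mars and Sars. The dose effect in hCYP2B6-Tg minus that in Cyp2b-null mice passed for 0 members (background 0%). There 1 member had an unadjusted p under 0.05, beside 1378 of all tested genes. DESeq2 and limma called 0 members.

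Without PFOS, hCYP2B6-Tg and Cyp2b-null mice differed in 0 members by edgeR's test (background 0%), and in 0 by DESeq2 and by limma. The unadjusted p was under 0.05 for 0 members, beside 535 of all 15583 tested genes. Females and males at dose 0 differed in 0 members by edgeR's test (background 7.59%). At an unadjusted p under 0.05 there were 11 members, beside 3239 of all tested genes. Lars2 came nearest, lower in females by a log2 difference of -0.87 ± 0.29 (adjusted p = 0.0545, edgeR). DESeq2 called 2 members, Lars2 and Vars, and limma called 8. The shares over all genes were not counted for those tools.

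Because each amino acid has its own enzymes, the cytosolic and mitochondrial genes can be paired within a mouse. For 18 pairs (Tarsl2 left out, Eprs paired with both Ears2 and Pars2, and the phenylalanyl subunit genes each with Fars2), a comparison added after the data were seen, the log2 ratio of cytosolic to mitochondrial CPM does not depend on the scaling of the library. From the fitted log2 fold changes, the ratio was higher at 10 than at 0 mg/kg/day in 16 pairs and lower in 2 (Rars/Rars2 and Wars/Wars2), with a median difference of 0.37. At 1 against 0 mg/kg/day it was higher in 12 and lower in 6, with a median difference of 0.01. These pairs share genes, and no test was made of the ratios.

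The valyl pair separated the doses most clearly. The log2 ratio of Vars to Vars2 ran from 1.36 to 2.00 at dose 0 (median 1.66), from 1.14 to 2.38 at 1 mg/kg/day (median 1.87) and from 2.15 to 3.35 at 10 mg/kg/day (median 2.63). All 15 high-dose mice lay above every mouse at dose 0, and 4 mice at 1 mg/kg/day did so too. The fitted difference was 1.04 for Vars/Vars2, 0.96 for Lars/Lars2, 0.80 for Sars/Sars2 and 0.73 for Cars/Cars2. With TMM scaling Sars rose little (0.10) and Sars2 fell (-0.70) in the seryl pair. In the methionyl pair Mars/Mars2 (0.47) Mars rose (0.41) and Mars2 changed little (-0.06). On unscaled library totals the log2 fold changes were 0.316 for Sars, -0.485 for Sars2, 0.633 for Mars and 0.159 for Mars2. How the change was shared between the genes of a pair thus depended on the scaling. For the tryptophanyl pair (-0.03) Wars and Wars2 had like log2 fold changes, -0.18 and -0.15.

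**Figure D5:**
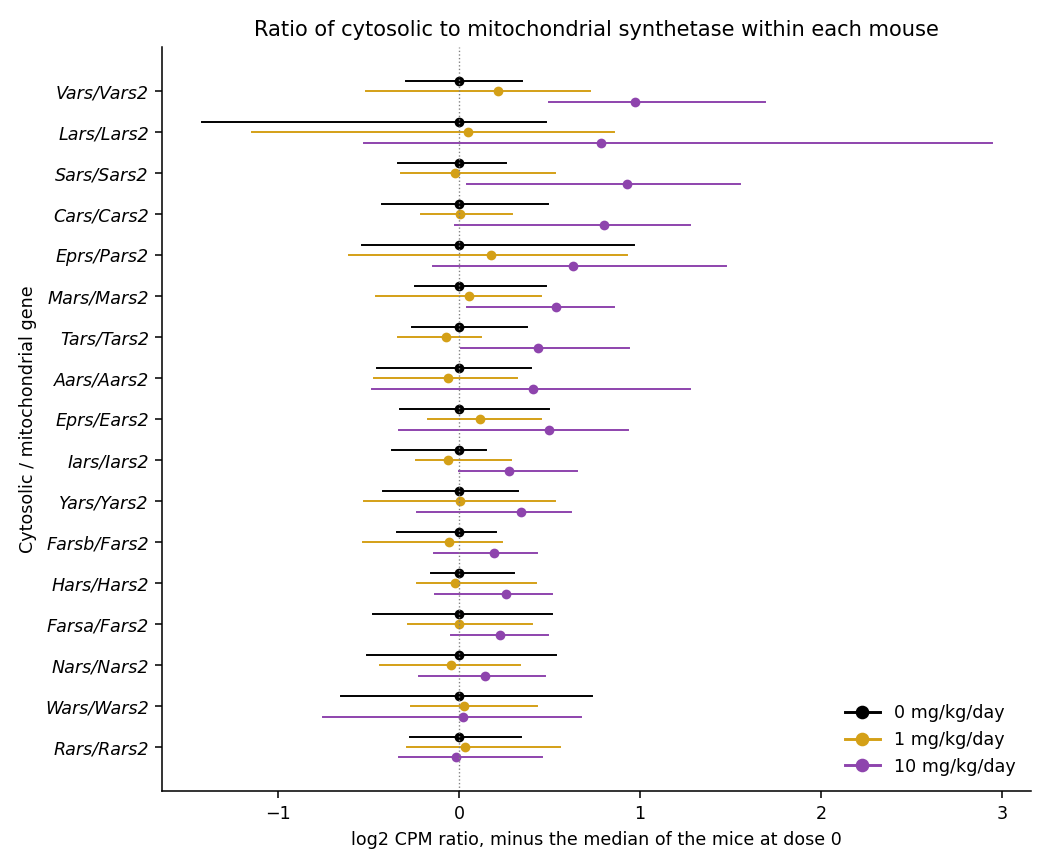
Log2 ratio of cytosolic to mitochondrial CPM for the gene pairs (1 of 18 not drawn), minus the median of the mice at dose 0; points are medians and lines run from the lowest to the highest mouse at 0, 1 and 10 mg/kg/day. The Vars/Vars2 range at 10 mg/kg/day lies wholly above that at dose 0, and the lines of the Rars/Rars2 and Wars/Wars2 pairs overlap throughout.

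The partners of the synthetases were taken from lists of genes, in the same 10 against 0 comparison, where 25% of all tested genes were called higher and 22.5% lower. Of the 3 scaffold genes of the multi-synthetase complex, Aimp2 (-0.94 ± 0.13) and Aimp1 (-0.21 ± 0.06) fell, with adjusted p of 8.2e-08 and 0.00222 by edgeR, and Eef1e1 did not pass (-0.11). With TMM scaling Aimp2 and Aimp1 therefore had the opposite sign to 6 of the 8 enzyme genes of that complex. This and the other gene lists below were examined with TMM scaling only. Every synthetase gene had a higher log2 fold change on unscaled library totals. Mitochondria make glutaminyl-tRNA by amidation and start translation with formylmethionine: of the 4 genes for these steps 3 fell, among them Qrsl1 (-0.57 ± 0.07) and Gatb (-0.32 ± 0.06). Of 10 mitochondrial translation factor genes 9 fell and 0 rose (median log2 fold change -0.36). The smallest p were those of Gfm2 (-0.50 ± 0.04) and the elongation factor gene Gfm1 (-0.56 ± 0.05). Of 18 genes that process or modify mitochondrial tRNA, 3 were higher and 5 lower, shares near those over all genes: the methyltransferase gene Nsun2 rose (0.54 ± 0.05) and Mrm2, which methylates mitochondrial ribosomal RNA, fell (-0.70 ± 0.11). For cytosolic tRNA processing, 5 of 23 tested genes were higher and 3 lower, again no more than the shares over all genes, with Trmt1 (0.69 ± 0.06) and the splicing endonuclease subunit gene Tsen34 (-0.43 ± 0.06) at the smallest p. The share of counts from the mitochondrial genome ran from 8.65% to 13.0% at dose 0 (median 10.4%) and from 5.53% to 9.78% at 10 mg/kg/day (median 7.58%); its part in the fall of the mitochondrial synthetase genes was not tested.

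Genes of the ATF4 response moved in the direction of the cytosolic synthetases, but not all of them. Of 27 tested genes 14 rose and 2 fell, beside 25% and 22.5% of all genes, with a median log2 fold change of 0.36; the translation repressor gene Eif4ebp1 rose most firmly (1.63 ± 0.14), and Psph, of serine synthesis, fell (-0.68 ± 0.09). Atf4 itself, singled out here after its value was seen, rose by 0.36 ± 0.07. Of 13 genes for the eIF2 kinases, eIF2B and their regulators 7 rose and 0 fell, against the same background, with the smallest p for the Gcn2 activator gene Gcn1l1 (0.59 ± 0.06) and the eIF2B subunit gene Eif2b3 (0.37 ± 0.06). Wars, a known target of interferon gamma, fell beside an interferon gamma list in which 1 of 13 tested genes rose, Psmb8 (0.52), and 2 fell, among them Gbp3 (-0.48), both fewer than the shares over all genes.

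Markers of other tissues were counted in the same comparison, with its background of 25% higher and 22.5% lower. Of 17 adipocyte genes 13 rose, 1 fell and 3 did not pass, and their mean log2 CPM ran from 1.92 to 4.92 at dose 0 and from 2.84 to 6.52 at 10 mg/kg/day; Retn rose by 3.14, while Car3 (-0.74) and Pnpla2 (0.83) are also expressed by muscle. With the adipocyte level as a covariate the same comparison gave 13 cytosolic genes higher, 2 lower and 7 mitochondrial genes lower. In that fit 17.7% of all tested genes were called higher and 16.8% lower. Of 9 tested lymph node genes 8 rose, of 5 tested liver genes 2, of 9 macrophage genes 5, of 8 endothelial genes 1 rose and 1 fell, and of 8 nerve genes 1 rose. Of 12 fast-fibre genes 2 rose and 7 fell. Without the 6 libraries with liver or lymph node transcripts 12 cytosolic genes were higher, 2 lower and 8 mitochondrial genes lower. The shares of all tested genes were then 21.3% higher and 18.2% lower. The gap between the class medians was 0.32 with the covariate and 0.29 without those libraries, against 0.33 in all mice.

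Promoter sequence was compared between the classes because ATF4 with C/EBP partners binds the element whose letters are TGATGNAA. RefSeq promoter windows (GRCm38.p6, 250 bases before to 50 after the start) were found for 14 cytosolic and 14 mitochondrial members; those of Cars, Hars, Lars, Nars, Rars, Vars, Wars, Hars2 and Pars2 were among those not matched. The letters were searched on both strands, and 5 of the 14 cytosolic members had a window that held them, against 0 of the 14 mitochondrial members. Of the 27025 genes with a window 4.51% had one that held them, and 3.97% of the 32851 windows of that length held the letters. Windows of 4 of these genes are shown because they mark cytosolic members that hold the letters, in capitals, as TGATGNAA or as its reverse complement, with each line 5′ to 3′ on the strand of the gene.
Gars (chr6:55037960-55037989, plus strand): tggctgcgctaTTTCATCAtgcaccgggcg
Iars (chr13:49682126-49682155, plus strand): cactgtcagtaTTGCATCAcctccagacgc
Tars (chr15:11399655-11399684, minus strand): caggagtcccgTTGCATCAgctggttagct
Yars (chr4:129189895-129189924, plus strand): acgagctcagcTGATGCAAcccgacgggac
Of the 8 matched cytosolic genes that rose, 3 held the letters (Gars, Iars and Tars), and of the 5 that did not pass, 2 held them (Aars and Yars); Tarsl2, the matched gene that fell, did not. Mars and Eprs rose without them in this window. The letters lay before the start in Gars (-30 to -23) and Tars (-15 to -8), and after it in Iars (8 to 15) and Yars (4 to 11). The bases after the start matched an annotated transcript of the gene for 11 of the 14 cytosolic and 13 of the 14 mitochondrial members. They did not for Kars, Sars, Dars and Sars2, which stay in these counts without a match of the letters. A match of letters is a description and no evidence of binding.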

How the data were processed

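Raw counts of reads per gene were deposited by the authors as a single table, with 1 column for each of 48 mice, all matched to a sample by name. The submitters' processing notes name HISAT2 and the build GRCm39; versions, the counter, the annotation and whether strand was used are not stated there or in the labels. Of 54495 genes shared with GENCODE vM21, 53585 (98.3%) have the same start and end there, so coordinates are given as GRCm38. Members and gene lists were chosen with earlier results of these data known.

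Counts were filtered with filterByExpr, scaled by TMM and fitted with edgeR 4.0.16 (R 4.3.3), with 1 coefficient per group, all 48 mice in 1 fit, 36 residual degrees of freedom and a biological coefficient of variation of 23.5%. Contrasts were tested two-sided with glmQLFTest, with Benjamini-Hochberg adjustment of p over 15583 genes, with a threshold of 0.05. Averages weight the 4 strata equally; fold changes are log2 ± SE. CPM are counts per scaled (TMM) library size, computed here from the authors' counts. P-values measure the spread between mice. Values by dose are given for the 8 members of each class with the smallest p in the averaged comparison; other lists give counts and up to 2 genes with the smallest p, and Lars2 and further genes named with values were chosen after those were seen. Values of some of these and other genes and 1 promoter sequence are not reported here, though those genes stay in the counts.

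Alternatives were DESeq2 1.42.0, limma 3.58.1 (voom with quality weights), other scaling and filters, a replicate block, an adipocyte covariate, and leaving out libraries. No libraries were copies: chi-square per degree of freedom was at least 7.24 over 73 pairs within groups. On simulated counts for the averaged comparison (15583 genes), 46% of 50 genes changed 1.25-fold were called and 78% of 50 changed 2-fold, with 6 false calls. Few genes were changed there, in random directions, whereas 47.5% of all tested genes were called in the data. The simulation therefore did not test the scaling. Its changed genes were drawn from all tested genes and not matched to the levels of the synthetase genes.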

Additional observations from a re-analysis of the deposited data

Results flagged for a closer look

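In groups of 4 or 5 mice, 12 of 198 sets of values held 1 mouse far from the rest; chance gives about 1 in 20. Among cytosolic genes, Vars stood at 37.9 CPM in replicate 3 of the Cyp2b-null males at dose 0 (others 44.3 to 45.6). Gars stood at 87.7 CPM in replicate 4 of the hCYP2B6-Tg males at dose 0 (others 71.9 to 74.1), and this was the mouse at dose 0 that reached into the high-dose range. Cars stood at 31.3 CPM in replicate 1 of the hCYP2B6-Tg females at 1 mg/kg/day (others 45.0 to 47.0) and at 50.9 CPM in replicate 1 of the hCYP2B6-Tg males at that dose (others 44.4 to 44.7).

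Among mitochondrial genes, Cars2 stood at 15.8 CPM in replicate 2 of the hCYP2B6-Tg females at dose 0 (others 13.1 to 13.5). Aars2 stood at 28.5 CPM in replicate 3 of the Cyp2b-null females at 1 mg/kg/day (others 23.1 to 23.8). Vars2 stood at 15.3 CPM in replicate 2 of the hCYP2B6-Tg males at 10 mg/kg/day (others 11.5 to 11.7). Tars2 stood at 23.8 CPM in replicate 3 of the hCYP2B6-Tg females at 10 mg/kg/day (others 26.2 to 26.5) and at 28.7 CPM in replicate 3 of the hCYP2B6-Tg males at 1 mg/kg/day (others 32.7 to 33.5).

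For the class levels (log2), the cytosolic level was -0.12 in replicate 2 of the hCYP2B6-Tg males at 1 mg/kg/day (others -0.05 to -0.04). The mitochondrial level was 0.23 in replicate 3 of the Cyp2b-null males at 1 mg/kg/day (others -0.03 to -0.02) and 0.15 in replicate 2 of the hCYP2B6-Tg females at dose 0 (others -0.06 to -0.04).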

How the results depend on the processing

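Averaged over strata, the counts of cytosolic genes higher (11 to 12) and lower (3 to 3) and of mitochondrial genes lower (10 to 11) at 10 against 0 mg/kg/day held when any 1 mouse was left out. On unscaled library totals the counts were 18 cytosolic higher, 1 lower, 3 mitochondrial higher and 2 lower at 10 against 0 mg/kg/day, and 18, 1, 3 and 2 at 10 against 1 mg/kg/day. There, 82.1% of all called genes were higher, against 52.6% with TMM, and 5 members called lower had positive log2 fold changes: Rars 0.073, Wars 0.045, Fars2 0.003, Hars2 0.052 and Tars2 0.034. Within strata unscaled totals gave 14, 16 and 15 cytosolic genes higher in hCYP2B6-Tg females, hCYP2B6-Tg males and Cyp2b-null females. Of all tested genes 22.6%, 25.6% and 28.6% were called higher there. Mitochondrial genes lower were then 2, 1 and 1, beside 7.55%, 4.45% and 2.82% of all tested genes. Mitochondrial genes called higher were Iars2 and Nars2 in hCYP2B6-Tg females, Wars2 in hCYP2B6-Tg males and Rars2 in Cyp2b-null females. On those totals 1 member passed between the sexes at dose 0. At 10 against 1 mg/kg/day 1 cytosolic gene was lower without a filter on low counts, and 1 with Tarsl2 counted as mitochondrial. Mitochondrial genes lower without the filter were 3 (hCYP2B6-Tg females) and 1 (Cyp2b-null females), beside 4.62% and 2.19% of the 35310 genes tested there. They were 1 (hCYP2B6-Tg males) and 0 (Cyp2b-null females) with adipocyte markers as a covariate, beside 4.47% and 3.56% of all tested genes. These counts were the same without the libraries with liver or lymph node transcripts, beside 5.1% and 2.8%. In Cyp2b-null males 3 were lower by limma and 2 with Tarsl2 counted as mitochondrial, beside 13.1% and 8.36%. With Gars and Kars left out 1 cytosolic gene was higher in Cyp2b-null females, beside 5.83% of all tested genes. The females minus males difference gave 1 member by DESeq2 and 2 by limma. Between the sexes at dose 0 the count was 1 with a CPM of at least 1 in 16 libraries, 1 with the covariate, 1 without those libraries, 2 by DESeq2 and 8 by limma. Shares over all tested genes were not counted between the sexes, or at 10 against 1 mg/kg/day, in these other fits.

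Replicate numbers did not pair mice: deviations from the group mean correlated by -0.00926 on average over 253 same-numbered pairs and 0.00319 over others. With a replicate block 5 mitochondrial genes were lower in hCYP2B6-Tg males, beside 11.8% of all tested genes. On average 11 cytosolic genes were then higher and 10 mitochondrial genes lower, beside 24.9% and 22.4%. In that fit 1 member passed between the sexes at dose 0.

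Shares over all tested genes were not counted in the fits that left out 1 mouse. Leaving out 1 mouse, cytosolic genes higher ran from 4 to 9 in hCYP2B6-Tg females, 3 to 9 in hCYP2B6-Tg males, 1 to 3 in Cyp2b-null females and 7 to 12 in Cyp2b-null males. Mitochondrial genes lower ran from 3 to 7, 1 to 6, 0 to 3 and 1 to 2 in the same order. The lowest of these came without replicates 1 or 2 at dose 0 or 2 at 10 mg/kg/day (hCYP2B6-Tg females), without replicate 2 at dose 0 or 2 or 3 at 10 mg/kg/day (hCYP2B6-Tg males) and without replicate 3 at 10 mg/kg/day (Cyp2b-null females). In hCYP2B6-Tg males the count was 5 or 6 without replicates 3 or 5 at dose 0 or 1 or 4 at 10 mg/kg/day. In Cyp2b-null females it was 1 without their replicates 1 or 3 at dose 0, 2 at 1 mg/kg/day or 1 or 2 at 10 mg/kg/day, and without replicate 3 of the hCYP2B6-Tg males at dose 0 or, of the Cyp2b-null males, 4 at 1 mg/kg/day or 2 or 3 at 10 mg/kg/day. The 2 in Cyp2b-null males came without their replicate 2 at 10 mg/kg/day. The females minus males difference ran from 0 to 3 members, that within Cyp2b-null mice from 0 to 2, and the sexes at dose 0 from 0 to 2; without replicate 2 of the hCYP2B6-Tg females at 10 mg/kg/day these were 3, 2 and 2, and without replicate 1 of the Cyp2b-null females at 10 mg/kg/day the first 2 were 1 and 1; for the sexes at dose 0 any of 11 libraries raised the count to 1 or 2. The cause of these shifts was not tested. Pars2, with the lowest mean of the family (3.06 CPM at dose 0), had an SE of 0.14 on the log2 scale, and Lars2, with far more counts, one of 0.21; how much of either comes from depth was not tested.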
